A study of Mus musculus with 20 samples.

Results

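The mu class of glutathione transferases was measured by 12 of the 45037 probe sets on the array, the groups of short probes that each report 1 transcript level. Its 7 genes were among 18193 that the platform annotation names singly. All probe sets annotated to Gstm1 through Gstm7 were taken, each on its own. Gstm1 had 4 probe sets, Gstm3 and Gstm7 had 2 each, and Gstm2, Gstm4, Gstm5 and Gstm6 had 1 each. None of the 12 was annotated to several genes. The family was chosen by measured values, since the Gstm6 probe set had a higher signal with iron regulatory protein 1 (IRP1) than without it in duodenum and liver, so all differences between IRP1 and control in those tissues are given as a description, without a test.

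Glutathione transferases join the tripeptide glutathione to reactive, often electrophilic compounds, which makes these more soluble and easier to export. The mu class enzymes are cytosolic dimers, abundant in liver, and their genes lie side by side in a cluster of close copies. IRP1 is a cytosolic protein that binds a stem-loop in certain mRNAs, the iron-responsive element, when cells are short of iron, and otherwise holds an iron-sulphur cluster and works as an aconitase.

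RNA was extracted from tissues of C57BL6/J mice, male and female, and pooled within each tissue. In the IRP1 reaction, 50 µg of total RNA was mixed with a rabbit polyclonal antibody against IRP1 and with recombinant His-tagged IRP1 that had been made in E. coli. In the control reaction the recombinant protein was left out and the antibody kept. Duodenum, liver and spleen were from mice given a diet with under 10 mg of iron per kg for 21 days from weaning, and bone marrow and brain were from mice of 8 to 10 weeks on a diet with normal iron. Diet and age therefore go with tissue and cannot be told apart from it. Each of the 5 tissues had 2 IRP1 and 2 control arrays, 20 arrays in all. The labels give 6 mice per pool for bone marrow and brain and 4 for 1 of the duodenum samples. Whether replicates came from separate pools is not stated. The p-values measure the spread between these arrays, which may be technical or may also hold differences between RNA preparations. Some cell type markers moved together in IRP1 and control arrays of the same number, as given at the end. The main model does not pair these arrays. The RNA was extracted before IRP1 was added, so the reaction reports binding of free RNA and not of complexes formed in the cells.

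In the RefSeq gene table (GRCm38.p6), which matched all 7 genes by symbol, the cluster on mouse chromosome 3 runs in the order Gstm5, Gstm7, Gstm6, Gstm3, Gstm2, Gstm1 and Gstm4, with no other protein-coding gene in between. For 4 of the genes a stretch of 16 bases beginning with ATG is given to show where close copies differ, read from windows that run from 250 bases before to 50 bases after each annotated transcript start. The stretches share the pattern ATGCCNNTGACNCTNG, which was written from these genes, so their likeness is set by the choice, and no window of Gstm1, Gstm4 or Gstm5 holds it. The sequences are from RefSeq on the minus strand of GRCm38.p6, at chr3:107943618-107943633 for Gstm6, chr3:107931639-107931654 for Gstm7, chr3:107969125-107969140 for Gstm3 and chr3:107986378-107986393 for Gstm2. Capitals mark the 4 positions at which they differ from each other.
Gstm6: atgccCGtgacTctGg
Gstm7: atgccCAtgacActGg
Gstm3: atgccTAtgacActGg
Gstm2: atgccTAtgacActAg
Gstm7 differs from Gstm6 at 2 of these bases, Gstm3 at 3 and Gstm2 at 4. The coding annotation was not used, and these bases are not the array's probes, whose sequences were not used here.

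The known loop of the iron-responsive element reads CAGTGN when written as DNA. On the sense strand, 2 of the 12 windows of Gstm1 to Gstm7 held these 6 letters (16.7%), against 34.6% of all 32851 windows of the same 300 bases. Of these bases 250 lie before the transcript start, outside the mRNA made from it, so most of a window cannot hold an mRNA loop. On either strand the letters were in 58.3% of the mu class windows and 55.8% of all windows. In the 50 bases from the start, 0 of the 12 windows held them, against 7.08% of all windows, and 0 of 12 lies near that share. The mRNA beyond the windows, its 3' end included, was not searched. An absence of the letters from these mRNAs therefore cannot be read from the counts. Both sense matches are shown because 1 of them belongs to Gstm6, with the letters in capitals.
Gstm6: ttttacttgttaCAGTGGgttgggctttat
Gstm3: tgaagggaaaggCAGTGCctgagtggggtt
The Gstm6 match, at chr3:107943766-107943795, begins 49 bases before 1 of the 3 annotated transcript starts of the gene, and whether a transcript from the farthest upstream start includes it was not examined. The Gstm3 match, at chr3:107969259-107969288, begins 102 bases before the 1 annotated transcript start of the gene, outside the transcript made from it. These letters were in 11372 of all windows on the sense strand, and a match describes the window, not a stem-loop.

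Gstm6 (probe set 1422072_a_at) had a higher signal with IRP1 than without it in duodenum and in liver. In duodenum its log2 signal was 6.60 and 7.28 on the control arrays and 9.39 and 8.77 on the IRP1 arrays. Both IRP1 arrays lay above both controls, by more than the distance between replicates. The difference of the means was 2.14 on the log2 scale (SE 0.27), a 4.40-fold higher signal, and 16 of the 45037 probe sets had a larger difference in that tissue. In liver the signal was 7.70 and 7.78 on the control arrays and 9.33 and 9.41 on the IRP1 arrays. The liver groups were the tighter of these, with a gap many times the distance between replicates. The liver difference was 1.64 (SE 0.27), or 3.11-fold, and 28 probe sets had a larger one.

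For scale, Tfrc, the transferrin receptor and a classic carrier of iron-responsive elements, had differences of 1.82 in duodenum and 2.69 in liver (probe set 1452661_at). Slc40a1, the iron exporter ferroportin, whose mRNA carries such an element too, had 0.21 in duodenum and 1.26 in liver (1417061_at). The Gstm6 difference was thus above that of Slc40a1 in both tissues, above that of Tfrc in duodenum and below it in liver. No test of these gaps was made. The duodenum control means were 12.51 for Tfrc and 13.65 for Slc40a1 against 6.94 for Gstm6. The highest signal of an array was 15.14 to 15.35. How brightness bears on the gaps was not tested, so they do not rank the genes by binding.

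**Figure D1:**
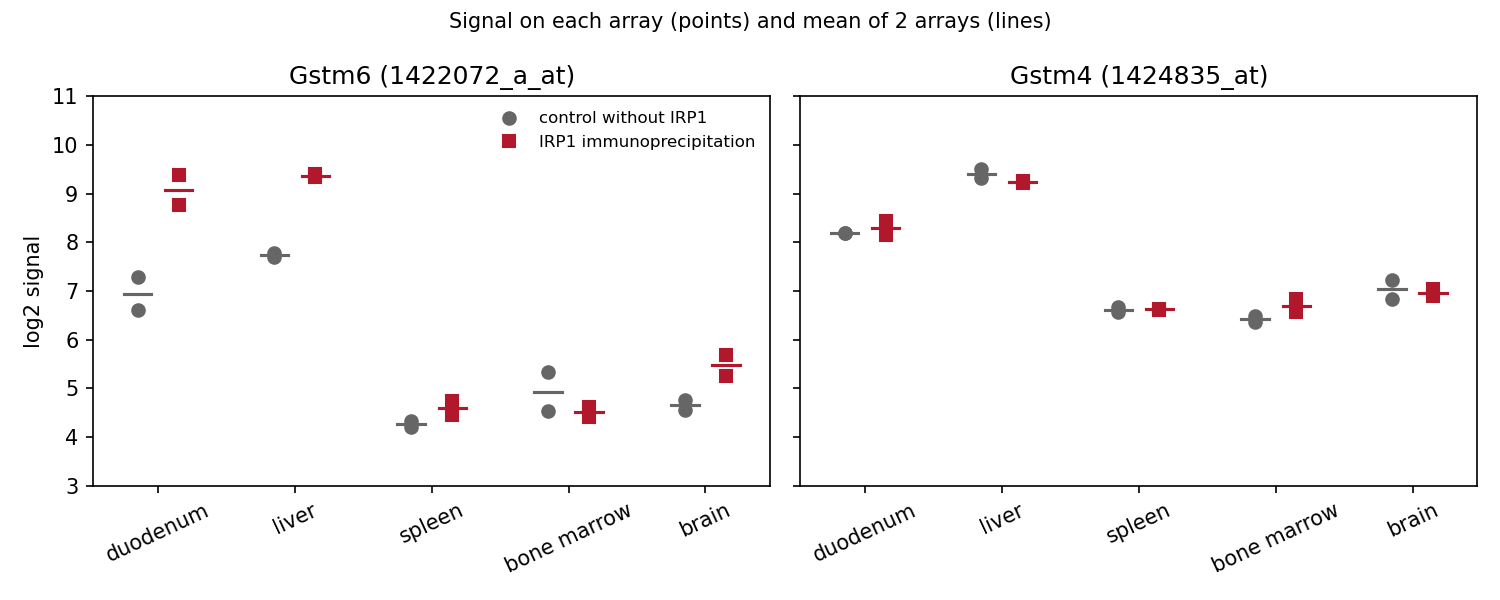
Log2 signal (vertical axis) of the Gstm6 probe set and of the Gstm4 probe set on each array, by tissue; grey circles are controls without IRP1, red squares are IRP1 immunoprecipitations and lines are means of 2 arrays. Gstm6 IRP1 arrays lie at 8.77 to 9.41 in duodenum and liver against 6.60 to 7.78 for the controls, while the Gstm4 arrays of both reactions lie close together in each tissue.

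The rest of the family had smaller differences. Over the 11 other probe sets, the duodenum differences ran from -0.24 (Gstm1, 1416416_x_at) to 0.10 (Gstm4), with a median of -0.09 against -0.02 for all probe sets. In liver they ran from -0.32 (Gstm2) to 0.75 (Gstm1, 1425626_at), with a median of -0.17 against -0.02. Both IRP1 arrays lay above both controls for 1 of the 12 probe sets in duodenum (Gstm6), where 16.6% of all probe sets did, and for 4 of 12 in liver, where 19.2% did. They lay below for 4 of 12 in duodenum (21.6% of all) and 5 of 12 in liver (26% of all). In duodenum 0.0799% of all probe sets were called higher at an adjusted p under 0.05 and 0.0244% lower, and in liver 0.091% and 0.0933%. Nothing is read from these shares for the members, which were chosen on the same contrasts.

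Gstm4, whose signal was the most like that of Gstm6 within the family, shows the contrast. Its duodenum signal was 8.20 and 8.20 on the controls and 8.43 and 8.15 with IRP1, so the groups overlapped. Its liver signal was 9.50 and 9.32 on the controls and 9.27 and 9.23 with IRP1. Gstm3, the neighbour of Gstm6 in the cluster, had duodenum signals of 11.81 and 12.02 without IRP1 and 11.79 and 11.87 with it on its brighter probe set (1427474_s_at). The groups of this probe set overlapped too. On 1427473_at of Gstm3 the duodenum difference was -0.19, with both IRP1 arrays below both controls. In liver the Gstm3 probe sets differed in sign, at -0.31 (1427474_s_at) and 0.37 (1427473_at). Gstm7, the neighbour on the other side, had duodenum signals of 6.31 and 6.92 on the controls and 6.42 and 6.65 with IRP1 (1419072_at), and these groups overlapped.

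Gstm1, the main mu class enzyme of liver, had 3 probe sets with a slightly lower mean with IRP1 in liver and 1 with a higher one. The probe set 1416416_x_at read 12.35 and 11.90 without IRP1 and 11.77 and 11.93 with it, 1448330_at read 11.04 and 10.75 against 10.70 and 10.57, and 1425627_x_at read 10.25 and 10.12 against 9.97 and 10.02. The fourth, 1425626_at, read 8.07 and 8.86 on the controls and 9.12 and 9.32 with IRP1, a difference of 0.75 (SE 0.22). The Gstm1 probe sets thus disagreed in sign in liver. A Gstm7 probe set, 1425946_at, had the same shape there, with 7.42 and 8.22 on the controls, 8.40 and 8.40 with IRP1 and a difference of 0.58 (SE 0.22). The other Gstm7 probe set, 1419072_at, read 8.04 and 7.54 without IRP1 and 7.87 and 7.89 with it.

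Over the 20 arrays the signals of 1425626_at (Gstm1) and 1425946_at (Gstm7) correlated at r = 0.944. Each was less like the other probe sets of its own gene, at 0.857 to 0.902 for Gstm1 and 0.679 for Gstm7. These correlations are over arrays that share tissues, so tissue differences make up most of them. In both probe sets the liver controls were also far apart from each other, by more than the mean difference for 1425946_at and about as much for 1425626_at. After quantile normalization of the arrays the liver differences of 10 of the 11 other probe sets were above 0, against 4 as deposited, so the sign of the small liver differences is not settled. The spread of signals over the probe sets of an array, whose SD was 1.90 to 2.24 over all arrays, was lowest on a liver IRP1 array.

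Cross-hybridization within the family was not tested, because no probe sequences were used. The name of the Gstm6 probe set ends in a_at, which in Affymetrix naming marks probes that match several transcripts of 1 gene. The endings s_at (Gstm3) and x_at (Gstm1, 2 probe sets) mark probes that can match transcripts of other genes. The other 8 end in at alone. The values that bear on it are these. As deposited, the largest difference of any other mu class probe set in duodenum and liver was 0.75. The brightest ones, 1416416_x_at of Gstm1 and 1427474_s_at of Gstm3, had liver differences of -0.27 and -0.31. After quantile normalization these were 0.15 and 0.05, and the largest liver difference of the other probe sets was 1.05.

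**Figure D2:**
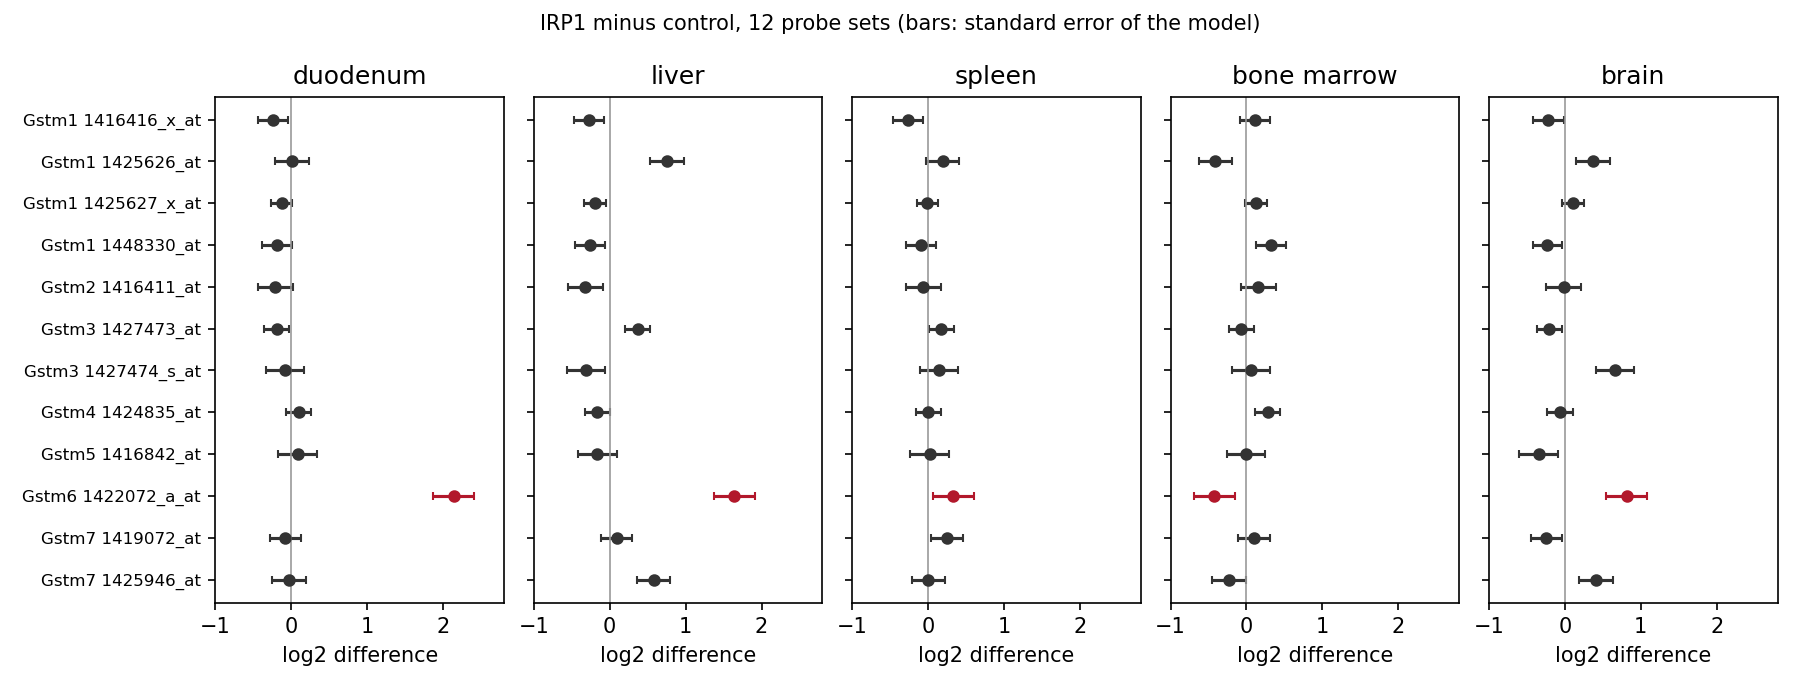
Log2 difference of IRP1 minus control (horizontal axis) for the 12 mu class probe sets in each tissue; points are differences of the means of 2 arrays and bars are standard errors of the model. Gstm6, in red, stands at 2.14 in duodenum and 1.64 in liver, and in spleen, bone marrow and brain no probe set passed the test.

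In spleen, bone marrow and brain, which the choice of the family did not use, no mu class probe set passed the test. None of the 36 tests had an adjusted p under 0.05 (limma, Benjamini-Hochberg over 45037 probe sets), and 2 had an unadjusted p under 0.05. Of all probe sets, 0.0688% were called higher and 0.0333% lower in spleen, 0.127% and 0.00444% in bone marrow, and 0.0866% and 0.0377% in brain. A count of 0 of 12 lies close to these shares. Both IRP1 arrays lay above both controls for 3 of 12 in spleen (17.6% of all), 2 in bone marrow (19%) and 4 in brain (16.7%), and below them for 1 (22.1%), 2 (11.8%) and 2 (16.9%).

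Gstm6 in brain had the smallest unadjusted p of these 36 tests. Its signal was 4.55 and 4.77 on the controls and 5.26 and 5.69 with IRP1, so the groups did not overlap. The difference was 0.82 (SE 0.27), with an adjusted p of 0.597. In spleen the signal was 4.20 and 4.32 without IRP1 and 4.46 and 4.73 with it, a difference of 0.33 (SE 0.27, adjusted p = 0.742). In bone marrow it was 5.33 and 4.53 without IRP1 and 4.40 and 4.62 with it, a difference of -0.42 (adjusted p = 0.964). The bone marrow groups overlapped, and the mean of the controls rested on 1 high array.

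These Gstm6 signals were dim. The control mean of 4.26 in spleen was at percentile 24.1 of all probe sets, 4.66 in brain at 32.1 and 4.93 in bone marrow at 38, against 70.7 in duodenum and 80.3 in liver. Low signals compress differences, and the 95% intervals were wide, from -0.24 to 0.91 in spleen, from -0.999 to 0.15 in bone marrow and from 0.24 to 1.39 in brain. These intervals are not set against the differences of duodenum and liver, which chose the family and were read at brighter signals. With all values under 6 set to 6, the Gstm6 difference was 0 in the 3 tissues.

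Gstm3 in brain held the other unadjusted p under 0.05. Its probe set 1427474_s_at read 6.87 and 6.89 on the brain controls and 8.10 and 7.0 with IRP1, a difference of 0.67 (SE 0.25, adjusted p = 0.661). The difference came from 1 IRP1 array. Without the other brain IRP1 array, replicate 2, the difference was 1.22 and passed the test (adjusted p = 0.0141), a comparison in which the lone array is assumed to vary like the other groups. The second Gstm3 probe set, 1427473_at, did not show it, with 4.42 and 4.35 on the controls and 4.10 and 4.26 with IRP1.

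Averaged over spleen, bone marrow and brain with equal weights, the differences of the 12 probe sets ran from -0.12 (Gstm1, 1416416_x_at) to 0.29 (Gstm3, 1427474_s_at). Gstm6 had 0.24 (SE 0.16, adjusted p = 0.68). No member was called, and none had an unadjusted p under 0.05, where 0.369% of all probe sets were called higher and 0.0622% lower. Without brain IRP1 replicate 2, 1427474_s_at of Gstm3 was called at 0.47 (adjusted p = 0.0453). The median of the 12 was 0.043, against -0.00173 for all probe sets. An F-test of whether the IRP1 difference varied between these 3 tissues called none of the 12, with adjusted p of at least 0.848, and 0.00888% of all probe sets. Of the 12, Gstm6 had the smallest unadjusted p in this F-test, at 0.0168.

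The control reactions give the signal of each gene in the RNA recovered with the antibody without IRP1, called its level below. All arrays carried immunoprecipitated RNA, so how far this level follows that in the total RNA of the tissue was not tested. In bulk RNA, fewer cells of a type and less RNA per cell cannot be told apart. All 12 probe sets differed between the 5 tissues (F-test, adjusted p of at most 0.00159), where 63.1% of all probe sets did. Levels are compared below only within a probe set, since probe sets differ in brightness.

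Gstm6 was highest in liver, at 7.74 ± 0.06 (SD, n = 2), and next in duodenum, at 6.94 ± 0.48. The gap between these was 0.80 (adjusted p = 0.0377 among all probe sets). The log2 signal was 3.47 higher in liver than in spleen and 2.68 higher in duodenum than in spleen. No fold is given, since the spleen signal is not shown to be above background. Bone marrow at 4.93, brain at 4.66 and spleen at 4.26 did not differ by the test, with adjusted p of 0.101 for spleen and bone marrow, 0.301 for spleen and brain and 0.459 for bone marrow and brain. Both tissues in which Gstm6 was chosen for its IRP1 difference were thus those with the highest control levels.

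Most of the family shared the liver peak. Control levels were highest in liver for 9 of the 12 probe sets, those of Gstm1, Gstm2, Gstm4, Gstm6 and Gstm7. Each of these was above its next tissue by the test.

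Gstm2 read 8.55 and 8.47 on the liver controls and was lowest in bone marrow, at 4.66 and 3.78, a dim signal not shown to be above background, so no fold is given. Of the Gstm1 probe sets, 1448330_at had a 17.9-fold range and 1416416_x_at a 15.6-fold range, both from liver down to spleen. For 1448330_at all 10 pairs of tissues differed, in the order liver, brain, duodenum, bone marrow and spleen. Brain stood second on 3 of the 4 Gstm1 probe sets, although for 1416416_x_at brain and duodenum did not differ by the test. On the fourth, 1425626_at, bone marrow stood second, not separated by the test from brain. Gstm4 followed the order liver, duodenum, brain, spleen and bone marrow, over a 7.95-fold range. Brain differed from bone marrow (adjusted p = 0.00699), and spleen was not separated by the test from either. Gstm7 on 1419072_at followed liver, duodenum and brain, with bone marrow and spleen not separated by the test.

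Gstm3 was the member with its peak in duodenum. The duodenum arrays also carried pancreatic acinar markers, as given below, and which cells gave this peak was not tested. On 1427474_s_at the duodenum controls read 11.81 and 12.02, the liver controls 10.61 and 10.36 and the brain controls 6.87 and 6.89, a 32.7-fold range. On 1427473_at the duodenum controls read 6.81 and 6.74 and the liver controls 5.46 and 5.73. Both probe sets put duodenum above liver, and liver above the 3 other tissues.

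Gstm5, the mouse counterpart of the human brain and testis form GSTM3, had its peak in brain. Its brain controls read 11.01 and 11.07. The other control arrays lay between 8.20 and 9.21. Brain differed from each of the other tissues, and among those no pair passed the test. With IRP1 the brain arrays read 10.36 and 11.02, a difference of -0.35 that did not pass the test.

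The probe sets 1425626_at (Gstm1) and 1425946_at (Gstm7) had the flattest profiles, with ranges of 3.70-fold and 2.13-fold. In both, liver was above the other tissues and most pairs of the others did not pass the test. For 1425946_at the level difference between tissues was lost without liver control replicate 2, where 11 of the 12 probe sets still differed.

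**Figure D3:**
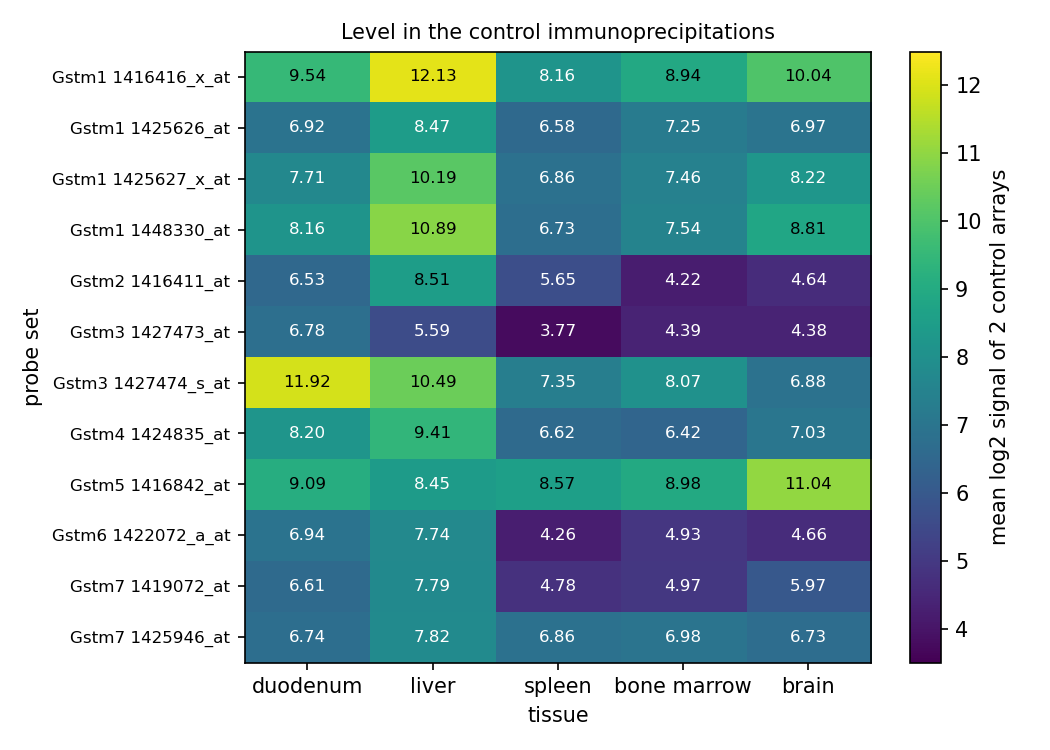
Mean log2 signal of 2 control arrays (colour, with the value printed) for each mu class probe set (rows) in each tissue (columns), to be read along a row. Liver is highest in 9 rows, duodenum in both Gstm3 rows at 11.92 and 6.78, and brain in the Gstm5 row at 11.04.

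Control levels were also compared for each pair of tissues. Liver and brain differed for 12 of the 12 (40.5% of all probe sets), liver and spleen for 11 (38.4%) and liver and bone marrow for 11 (32.5%). Duodenum and liver differed for 11 (27.5%), duodenum and spleen for 9 (32.3%), duodenum and brain for 9 (39.6%) and duodenum and bone marrow for 8 (29.6%). Brain differed from spleen for 7 (38.2%) and from bone marrow for 7 (41%). Spleen and bone marrow, the least separated pair, differed for 6 (18.4%).

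Over the 20 arrays Gstm6 correlated with Gstm4 at r = 0.896, with Gstm7 (1419072_at) at 0.863, with the Gstm3 probe sets at 0.856 and 0.836, with Gstm2 at 0.791 and with the Gstm1 probe sets at 0.635 to 0.665. With Gstm5 the value was -0.304. Over the 10 control arrays alone, Gstm4 stood at 0.933 and Gstm7 (1419072_at) at 0.9. These values describe shared tissue levels, since the arrays of a tissue share their RNA source.

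Outside the family, the genes most like Gstm6 over the 20 arrays were Wfdc2 (r = 0.956), Esrp2, an epithelial splicing factor (0.943), Pla2g12b (0.941), Smlr1 (0.94) and Fbxw9 (0.94). Their IRP1 differences were smaller than those of Gstm6. In duodenum they ran from 0.18 (Esrp2) to 0.52 (Pla2g12b), and in liver from 0.03 (Pla2g12b) to 0.49 (Smlr1). Their SEs ran from 0.17 (Esrp2) to 0.23 (Wfdc2). The correlations that chose these genes included the IRP1 arrays, so the differences are not independent of the choice. The genes most like Gstm1 (1416416_x_at) were Ttc39c (0.976), Gas2 (0.972), Rnf217 (0.97), Gpld1 (0.964) and Fads2 (0.959), and those most like Gstm5 were Pja2, Rab11fip4 and Ldhb at 0.974, Slc24a3 (0.97) and Trpc1 (0.969).

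The tissue labels were checked against markers. Enterocyte, hepatocyte, lymphocyte, neutrophil precursor and neuron markers were each highest in duodenum, liver, spleen, bone marrow and brain, and no marker gene of any list was called with IRP1 in any tissue. The duodenum arrays also carried pancreatic acinar markers (5 of 6 genes measured), with a mean log2 signal of 13.04 and 14.10 on the controls and 12.14 and 13.72 with IRP1. Enterocyte markers (5 of 6 measured) lay at 13.57 to 13.63 there without IRP1 and 13.21 to 13.49 with it. In liver, hepatocyte markers (5 of 6 measured) lay at 13.15 to 13.47 without IRP1 and 12.77 to 13.12 with it, and enterocyte markers at 7.81 to 8.91 and 7.43 to 8.86. The pancreatic and enterocyte means in duodenum and the hepatocyte mean in liver were thus lower with IRP1, by 0.64, 0.25 and 0.36. The pancreatic ranges of the 2 reactions in duodenum overlapped. Marker lists moved both ways in liver, where pancreatic (0.435) and lymphocyte (0.325) means were higher with IRP1 and the enterocyte mean was lower (-0.22). In spleen, pancreatic markers lay at 8.79 to 9.61 without IRP1 and 8.84 to 9.71 with it. Hepatocyte markers in spleen lay at 6.32 to 8.26 without IRP1 and 6.27 to 8.15 with it. The part of any of these lists in the Gstm6 difference or in the control levels was not tested. Arrays of 1 group correlated at 0.983 to 0.992.

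The enzymes that act around the mu class were compared through 3 lists, 1 probe set per gene. Of the other glutathione transferase classes (alpha, pi, theta and others), 19 of 23 genes were measured. None was called in spleen, bone marrow or brain alone (unadjusted p under 0.05 for 1, 3 and 2). In the mean of these tissues 1 was higher and 0 were lower, with a median difference of 0.07 against -0.00173 for all probe sets. The 1 gene was Gstt3, a theta class transferase.

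Gstt3 (1423891_at) was higher with IRP1 on every pair of arrays in all 5 tissues. In spleen it read 5.27 and 6.01 on the controls and 6.93 and 7.74 with IRP1. In bone marrow it read 5.14 and 5.61 against 6.41 and 6.61, and in brain 5.90 and 6.0 against 7.15 and 7.06. The groups did not overlap in any of these tissues. The mean difference over the 3 was 1.33 (SE 0.19, 2.51-fold, adjusted p = 0.00131), and no single one of them passed the test (adjusted p = 0.06, 0.546 and 0.434). In duodenum it read 9.45 and 9.42 on the controls and 11.79 and 10.81 with IRP1, and in liver 9.54 and 9.06 against 10.31 and 10.65. Its differences of 1.87 and 1.18 there stand beside the 2.14 and 1.64 of Gstm6. In the 3 other tissues Gstt3 had 1.70, 1.13 and 1.16, where Gstm6 had 0.33, -0.42 and 0.82. The difference between the genes was not tested.

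Among genes of glutathione synthesis and recycling, 25 of 27 were measured, and 1 was higher and 0 lower in the mean of the 3 tissues, with a median of -0.03. The 1 gene was Oplah, 5-oxoprolinase, which returns 5-oxoproline to glutamate in the glutathione cycle. Oplah (1424359_at) had a mean difference of 0.82 (SE 0.16, 1.76-fold, adjusted p = 0.0336). Its spleen arrays read 6.35 and 6.12 without IRP1 and 6.84 and 8.05 with it, so 1 array lay far above the other. The Oplah call was lost in 15 of 27 alternatives, among them the replicate block (adjusted p = 0.0552), the floor at log2 6 (0.253) and leaving out the 3 arrays with the lowest spike controls (0.144).

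Targets of Nrf2, the transcription factor that drives many detoxifying genes, the mu class among them, were the last list. Of 18 genes outside the glutathione lists 16 were measured. None was called in the mean of spleen, bone marrow and brain (2 at an unadjusted p under 0.05), and their median was -0.08. In the family itself 0 of 12 probe sets were called in the same mean. Of all probe sets, 0.369% were called higher there and 0.0622% lower, and 0 of 12 lies close to these shares. The lists were counted by gene and the family by probe set, so the counts are not compared.

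**Figure D4:**
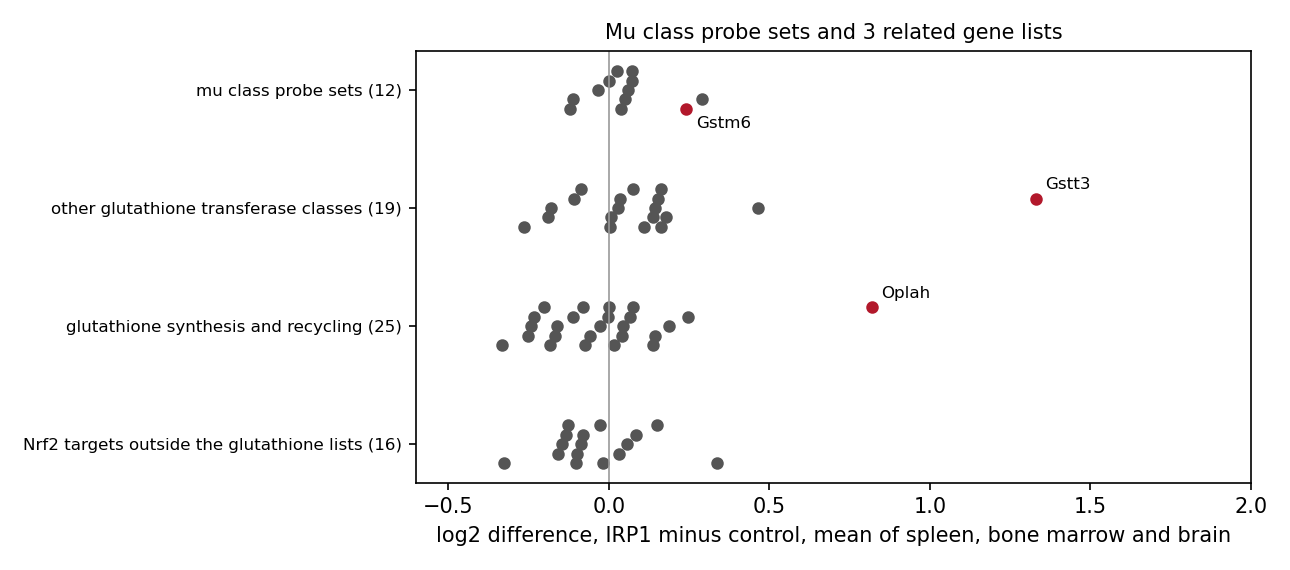
Log2 difference of IRP1 minus control averaged over spleen, bone marrow and brain (horizontal axis) for the mu class probe sets and for the genes of 3 related lists (rows, with the number plotted; vertical offsets only separate points). Gstt3 at 1.33 and Oplah at 0.82 lie to the right of their lists, and Gstm6 at 0.24 lies near the other mu class probe sets.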

How the data were processed

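Log2 signals of Affymetrix Mouse430_2 arrays were taken as the authors deposited them, 1 value per probe set and array. Per the submitters' processing notes, RMA or MAS5 (in GCOS, then quantile normalized) was used, and which of these made the table is not stated. About 120 ng of immunoprecipitated RNA was amplified in a two-cycle procedure, per the labels. The number of arrays limits the precision.

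The log2 values were used without filter or pseudocount. Of 45101 probe sets, 64 Affymetrix controls were left out. Gene names come from the platform annotation, which gives 1 symbol for 34945 probe sets, several for 932 and none for 9160. One limma 3.58.1 model (R 4.3.3, lmFit and eBayes) with 10 groups was fitted to the 20 arrays. It had 10 residual degrees of freedom and 6.14 from the prior. P-values are two-sided and adjusted by Benjamini-Hochberg over 45037 probe sets within each contrast, with calls at an adjusted p under 0.05. The SE beside a difference is the model's. Plots used matplotlib 3.10.9 in Python 3.11.15.

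The members, the lists and the tests were chosen with earlier results of these data known. Named genes were every member, the 5 genes most like Gstm6, Gstm1 and Gstm5 over the arrays, up to 3 called genes of each list, and Tfrc and Slc40a1 for scale. In a list, a gene is represented by its brightest probe set on average. Alternatives were quantile normalization, median centring, a floor at log2 6, a trended robust prior, array weights, leaving out arrays, a replicate block and separate fits.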

Additional observations from a re-analysis of the deposited data

Results flagged for a closer look

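For 6 of the 12 mu class probe sets both IRP1 arrays lay above both controls in one tissue and below them in another. Of all 45037 probe sets, 28.6% did so. None of these differences between tissues was tested, and the widest is given for each probe set. The Gstm1 probe set 1425626_at had 0.75 in liver and -0.41 in bone marrow, 1.16 apart on the log2 scale. The Gstm7 probe set 1425946_at, whose signal follows it over the arrays, had 0.58 and -0.23 in the same tissues, 0.81 apart (0.807). The Gstm3 probe set 1427474_s_at had 0.67 in brain and -0.31 in liver, 0.976 apart, and the other Gstm3 probe set, 1427473_at, had 0.37 in liver and -0.20 in brain, 0.57 apart, the opposite order. Gstm1 1448330_at had 0.32 in bone marrow and -0.26 in liver, 0.578 apart. Gstm4 had 0.28 in bone marrow and -0.17 in liver, 0.445 apart. Under quantile normalization the median liver difference of the 11 probe sets other than Gstm6 was 0.149, against -0.166 as deposited.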

How the results depend on the processing

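Gstm6 kept a positive difference in duodenum and liver under all 28 alternatives run. Most of these could not move it, such as leaving out an array of another tissue. The choice of the family also used both differences. Leaving out each array in turn gave 1.80 to 2.48 in duodenum and 1.60 to 1.68 in liver, and quantile normalization gave 1.97 in liver. Same-numbered IRP1 and control arrays deviated together in spleen (r = 0.533), duodenum (0.272) and brain (0.119) but not in liver (-0.0742) or bone marrow (-0.0389), so the arrays were not treated as pairs. Some markers did move together by number, such as the hepatocyte mean in spleen (replicate 2 minus 1 of 1.94 in controls and 1.87 with IRP1) and the enterocyte mean in liver (1.09 and 1.43). With a replicate block the Gstm6 differences were 2.14 and 1.64, which a block cannot change in this balanced design. The count of members called in spleen, bone marrow and brain with the block was 0. Among the results recomputed with it, the block changed the call of Oplah alone. Leaving out 1 array gave 0 to 1 members called higher in those tissues, 0 called lower, 0 to 1 called in their mean, 0 whose effect differed between them, and 11 to 12 whose control level differed between tissues. In bone marrow Gstm6 ran from -0.825 to -0.0237 with 1 array left out. Gstt3 kept its call in all 27 alternatives run for the mean of the 3 tissues, with adjusted p from 0.000216 to 0.0432. Signals near the lower end of the scale, as for Gstm6 in spleen, bone marrow and brain, limit what can be read from small differences.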
